A study of Mus musculus with 8 samples.

Results

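B16-F10 cells, a mouse melanoma line, were compared after growth on 2 matrices that differed in 1 siRNA. Both matrices had been laid down by smooth muscle cells kept in the medium that the labels abbreviate SFM. In the library SFM siNT the smooth muscle cells had received siNT, the label that serves as control here, and in SFM siKLF4 they had received siKLF4. The comparison covered the 2697 of 46477 rows of the expression table whose level reached 5 in at least 1 of these libraries, in FPKM (fragments per kilobase, scaled to the depth of the library). For each row the value of SFM siNT was subtracted from that of SFM siKLF4 on the scale of log2(FPKM + 1), which understates the change of low genes. Unless a sentence says otherwise, a difference below is on that scale and a level is an FPKM.

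The smooth muscle cells had siRNA for 72 hours, then another 72 hours in the treatment medium, and were lysed. The melanoma cells were grown for 24 hours on the washed matrix that remained. Of the 8 libraries, 6 more held the other combinations: SFM siFN, SFM siKLF4-siFN, TCM siNT, TCM siKLF4, TCM siFN and TCM siKLF4-siFN. The series title names tumor conditioned media of B16-F10 cells, which is read here as TCM. Each condition had 1 library, so SFM siKLF4 against SFM siNT has no replicate, no error between cultures and no test. The siRNA was given to cells that were gone before the RNA was taken, so no gene of the melanoma libraries checks the knockdown.

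KLF4 is a zinc finger transcription factor that smooth muscle cells use when they leave the contractile state for a more plastic one. FN in the other siRNA labels is read as fibronectin, a matrix glycoprotein that cells bind through integrins. Tumor cells read a matrix through integrins and their actin links, and can answer with altered growth, metabolism and stress programs. The treated cell here is the maker of the matrix, and the measured cell is the one that grew on it.

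The libraries were checked against cell type markers first. Of 12 melanocyte and melanoma markers, 10 reached 1 FPKM in at least 1 of the libraries, among them Tyrp1, Pmel and Sox10, and Ednrb was at 0 in both. Of 20 smooth muscle markers, 3 did (Des, Cald1 and Mcam), with summed levels of 26.93 in SFM siNT and 25.61 in SFM siKLF4. Most of each sum was Mcam, at 23.23 in SFM siNT and 21.66 in SFM siKLF4. Acta2, Cnn1, Myocd, Rgs5 and Kcnmb1, which define smooth muscle, were at 0 in both. Fibroblast, endothelial and leukocyte lists had 1 marker each at 1 or more (Gsn, Eng and Cd68), and their summed levels were 2.92 and 2.78, 5.67 and 5.16, and 2.62 and 3.44. Col3a1, Cdh5 and Ptprc, which define those types, were at 0 in both. In RNA from a whole culture, fewer cells of a kind and less RNA per cell cannot be told apart. Approximate depth differed within the pair, at 23000000 reads in SFM siNT and 11600000 in SFM siKLF4, the highest and the lowest of the 8 libraries.

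The protein-coding gene with the largest difference was Mt2 (-1.01). Among protein-coding genes with an official name, Rplp1 (-0.90) came next and then Mt1 (-0.86), the neighbour of Mt2. Mt1 and Mt2 encode metallothioneins, small cysteine-rich proteins that bind zinc and copper and are switched on by metal excess, glucocorticoids and oxidative stress. MTF-1, the zinc-sensing factor, binds short metal response elements in their promoters. The 250 bases before the RefSeq start of each gene (GRCm38.p6, plus strand) are shown because these neighbouring genes were lower together, with every match to TGCACNC or TGCGCNC on either strand in capitals.
Mt1, chr8:94178839-94179088: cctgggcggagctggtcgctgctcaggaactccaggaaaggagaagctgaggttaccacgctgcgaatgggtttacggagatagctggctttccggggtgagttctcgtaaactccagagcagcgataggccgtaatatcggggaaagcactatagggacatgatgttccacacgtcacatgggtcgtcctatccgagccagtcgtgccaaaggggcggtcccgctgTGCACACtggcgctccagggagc
Mt2, chr8:94172368-94172617: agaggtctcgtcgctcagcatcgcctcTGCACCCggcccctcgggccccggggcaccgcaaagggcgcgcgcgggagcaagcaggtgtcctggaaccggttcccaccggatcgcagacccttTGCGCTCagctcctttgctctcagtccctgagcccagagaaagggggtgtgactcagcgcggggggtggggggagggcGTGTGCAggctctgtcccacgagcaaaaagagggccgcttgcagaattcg
The Mt1 window held 1 match, 23 bases before the start, and the Mt2 window held 3, at 223, 128 and 50 bases. In the annotation used for gene positions the starts differ, at 94179082 for Mt1 and 94172664 for Mt2. The counts cover the printed windows only, and bases beyond them were not searched, so they are not counts for the whole promoters. Of 32851 promoter windows of this length, 21.4% held at least 1 such match. The Mt2 window also held 1 match to TGACNNNGC, letters of the antioxidant response element, which 10.2% of the windows held. The matches describe letters and are not shown to be bound.

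Mt2 (chromosome 8, 94172664 to 94173568 on GRCm38) had an FPKM of 102.3 in SFM siNT and 50.2 in SFM siKLF4, a ratio of 0.491 and a difference of -1.01. Its level was 194.1 with siFN and 110.8 with siKLF4-siFN on SFM matrix, and on TCM matrix 58.4 with siNT, 65.6 with siKLF4, 56.5 with siFN and 51.8 with siKLF4-siFN. SFM siKLF4 was thus the lowest of the 8 libraries, near the 4 TCM libraries, and the other SFM libraries were the 3 highest. Mt1 (chromosome 8, 94179082 to 94180327) had 269.0 in SFM siNT and 147.7 in SFM siKLF4, a ratio of 0.549 and a difference of -0.86. The other libraries had 207.0 with siFN and 184.9 with siKLF4-siFN on SFM matrix, and on TCM matrix 143.5 with siNT, 190.3 with siKLF4, 156.4 with siFN and 155.0 with siKLF4-siFN. For Mt1 the library that stood highest was SFM siNT, and SFM siKLF4 lay among the TCM libraries. On about 1058 and 261 reads, the 95% interval of the log2 FPKM ratio was -1.22 to -0.83 for Mt2. For Mt1, on about 3920 and 1083 reads, it was -0.96 to -0.77. These intervals come from approximate depths and cover counting error only.

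Of the other genes of zinc handling looked at, Slc30a1 was close in the pair and the rest were under 1 FPKM. Slc30a1, a zinc exporter that MTF-1 also drives, had 3.42 and 3.19, and Mtf1 itself had 0.50 and 0.52. Slc39a10 had 0.76 and 0.96, higher in SFM siKLF4, and Mt3, the brain form, was at 0.06 and 0. In the other 3 siKLF4 pairs, which share no library with this one, Mt1 differed by 0.08 ± 0.15 (SE, limma, adjusted p = 0.9273) and Mt2 by -0.25 ± 0.21 (adjusted p = 0.8866). Neither passed the threshold of 0.05.

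**Figure D1:**
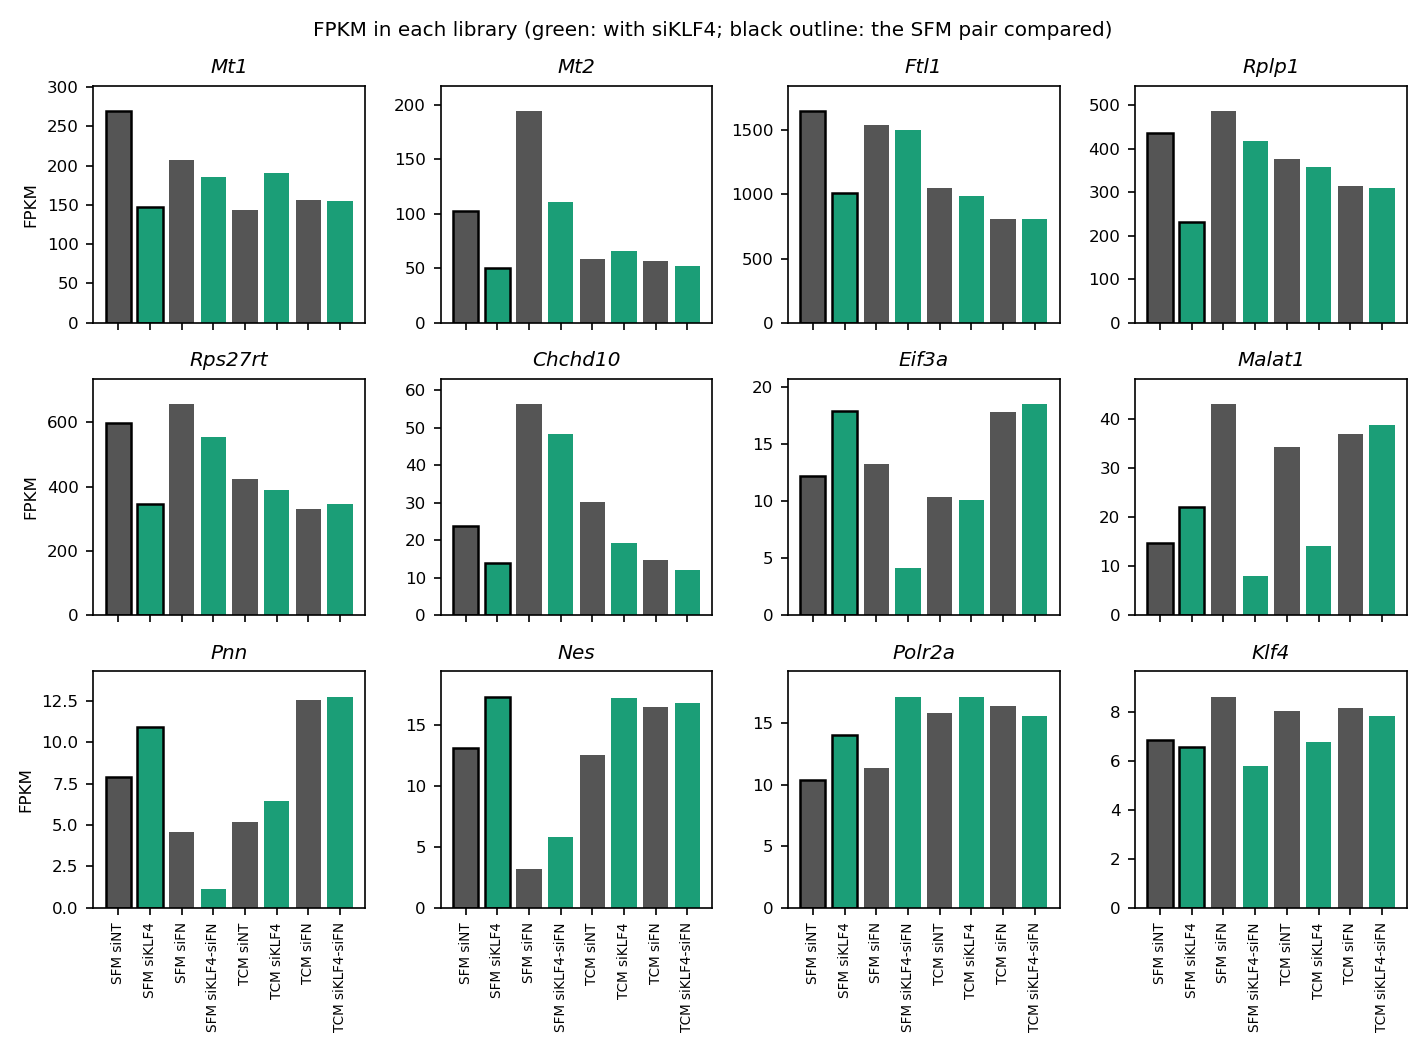
FPKM of 12 genes (vertical axis, starting at 0) in each of the 8 libraries (horizontal axis), 1 bar per library with no error bar because each condition had 1 library. Green bars had siKLF4 and black outlines mark the SFM pair, in which Mt2 stood at 102.3 and 50.2 and Klf4 at 6.84 and 6.56.

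Few genes differed by much. Past a difference of 1 either way there were 31 of 2697 rows (1.15%), 14 of them higher in SFM siKLF4 (0.519%) and 17 lower (0.63%). At 0.5, 90 were higher (3.34%) and 164 lower (6.08%). The median over all rows was -0.07, 1698 rows were below 0 and 999 above, and 1807 lay within 0.25 of 0. Of the 2697 rows, 2428 had 5 or more in both libraries, 170 only in SFM siNT and 99 only in SFM siKLF4. Those that reached the minimum in 1 library alone had to differ, and 13 of the 31 reached it in both. At the edge of the minimum, Ddx47 (5.01 and 4.52) and Ppp1cb (5.01 and 4.86) were just inside, and Acsl3 (4.99 and 4.85) and Rras (4.99 and 4.63) just outside.

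The rows past 1 were nearly all gene models without an official name or rows with a pseudogene name, which were 28 of the 31 and 877 of all 2697. Processed pseudogenes, copies of spliced RNA pasted back into the genome, made up 20. The rest were 1 unprocessed pseudogene, 3 antisense genes, 1 small RNA gene, 5 rows with no match in the annotation and Mt2. Among protein-coding genes, Mt2 was the only one of 1812 past 1 (0.0552%). Eif3a and Gm9045 were the 2 higher by at least 0.5 (0.11%), and 60 were lower by at least 0.5 (3.31%). The single largest difference upward was the processed pseudogene Gm5537, at 178.6 and 640.3, and downward the antisense gene Gm17122, at 8.94 and 1.39. Both were chosen after their values were seen. How the counting split reads between such copies and their parents is not given in the sources used here, so these values are uncertain.

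**Figure D2:**
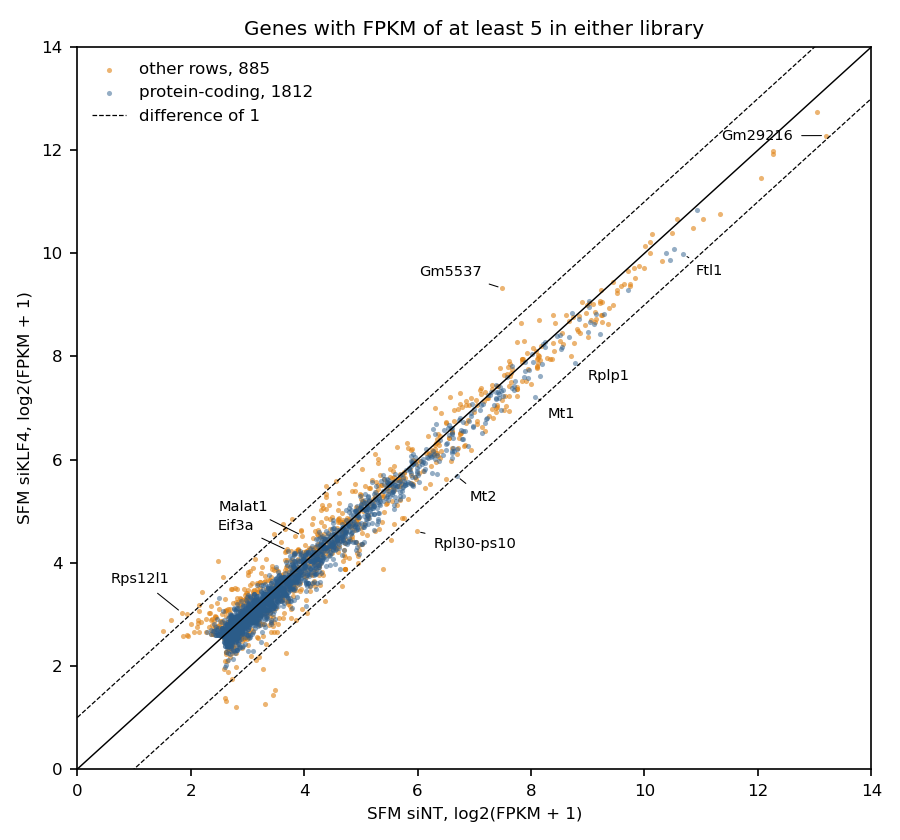
Each point is 1 of 2697 rows, with log2(FPKM + 1) in SFM siNT on the horizontal axis and in SFM siKLF4 on the vertical axis. The solid line marks equality and the dashed lines a difference of 1; the 1812 protein-coding genes (blue) hug the solid line, and of the 31 points past a dashed line all but Mt2 are other rows (orange).

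The ferritins and antioxidant genes sat on the same side as the metallothioneins. Ferritin stores iron in a shell of light and heavy chains, and both chains are targets of NRF2, the factor that answers oxidative stress. Ftl1, the light chain, had 1649 in SFM siNT and 1009 in SFM siKLF4 (difference -0.71). It had 1540 with siFN and 1506 with siKLF4-siFN on SFM matrix, and on TCM matrix 1049 with siNT, 985.8 with siKLF4, 811.3 with siFN and 807.1 with siKLF4-siFN. As with Mt2, 3 of the SFM libraries were high, and SFM siKLF4 lay within the range of the TCM libraries. Fth1, the heavy chain, had 1329 and 1022 (-0.38), and Prdx1, a peroxidase that removes hydrogen peroxide, had 96.1 and 64.2 (-0.57). Of 13 NRF2 targets at the minimum, 12 were below 0 and 1 above, and 2 were lower by at least 0.5. Over all 2697 rows, 1698 were below 0 and 6.08% were lower by at least 0.5. The exception was Txnrd1, thioredoxin reductase, at 14.3 and 15.98. Hmox1, which breaks down heme, had 112.6 and 93.4, and Srxn1 had 96.9 and 90.8. The median of the list was -0.23, against -0.07 over all rows.

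Genes for ribosomal and mitochondrial proteins were mostly lower in SFM siKLF4. Rplp1, an acidic protein of the ribosomal stalk, had 435.5 in SFM siNT and 232.4 in SFM siKLF4 (difference -0.90). The other libraries had 485.7 with siFN and 417.6 with siKLF4-siFN on SFM matrix, and on TCM matrix 375.0 with siNT, 358.0 with siKLF4, 314.5 with siFN and 308.4 with siKLF4-siFN. SFM siKLF4 was the lowest of the 8. Rps27rt, a near-identical copy of the ribosomal protein gene Rps27, had 596.3 and 344.5, and Rps27 had 7.54 and 3.86, so reads of the 2 may be split between them. Summed, they had 603.8 and 348.4, a ratio of 0.577. Rps16, of the small subunit, had 31.6 and 19.6. Of 78 cytosolic ribosomal protein genes, 65 were below 0 and 13 above, 13 were lower by at least 0.5, and the median was -0.23. By at least 0.5, 164 of all 2697 rows were lower (6.08%), and 26 of 172 protein-coding genes of up to 750 nucleotides. Rpl41, at 202.4 and 225.4, was among those above. Rps12l1 was the only one of the list higher by 0.5, at 2.58 and 7.18, and the annotation calls it a processed pseudogene. Its values rested on about 23 and 33 reads, and those of Rps27 on about 59 and 15.

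Of 27 mitochondrial ribosomal protein genes, 26 were below 0, with a median of -0.20. Over all 2697 rows, 1698 were below 0. Among protein-coding genes, 155 of 172 of up to 750 nucleotides and 385 of 457 of 750 to 1500 were below 0. Mrpl34 had 31.1 and 19.6, Mrpl52 had 5.16 and 3.04, and Mrpl36 had 22.3 and 14.8. These 3 were lower by at least 0.5, as were 6.08% of all rows. The subunits of the respiratory chain and ATP synthase, which make ATP from electron transport, had 51 of 58 below 0 and a median of -0.22. Cox8a, of cytochrome oxidase, had 47.2 and 31.97, and Atp5d, of ATP synthase, had 13.7 and 9.05. Chchd10, a protein of the mitochondrial intermembrane space, had 23.7 in SFM siNT and 13.8 in SFM siKLF4. It had 56.4 with siFN and 48.5 with siKLF4-siFN on SFM matrix, and on TCM matrix 30.1 with siNT, 19.2 with siKLF4, 14.7 with siFN and 11.998 with siKLF4-siFN. It was lower with siKLF4 in all 4 pairs, with differences of -0.74, -0.63, -0.21 and -0.27 for SFM, TCM, SFM with siFN and TCM with siFN. Over the 3 pairs other than SFM the difference was -0.37 ± 0.14 (SE, limma, adjusted p = 0.8866).

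These groups have short transcripts, with median lengths of 771 nucleotides for cytosolic ribosomal proteins, 1219 for mitochondrial ones and 711 for the respiratory chain, and the difference moved with transcript length. Among protein-coding genes of up to 750 nucleotides, 155 of 172 were below 0 and the median was -0.23. The median was -0.18 from 750 to 1500 nucleotides, -0.08 from 1500 to 3000, 0.02 from 3000 to 4500 and 0.11 above 4500, where 120 of 151 were above 0. Across the 1812 genes the difference and log2 length had a Pearson correlation of 0.526 and a Spearman correlation of 0.524, a description over genes that share the same 2 libraries. In the other siKLF4 pairs the Pearson value was -0.065 for TCM, -0.099 for SFM with siFN and -0.103 for TCM with siFN. Against each of the other 7 libraries SFM siKLF4 had a positive value, from 0.134 to 0.526. SFM siNT stood off the other way against 4 TCM libraries, at -0.14 for siNT, -0.127 for siKLF4, -0.292 for siFN and -0.271 for siKLF4-siFN. On values centred on the mean of the 8 libraries, the shortest class had a median of 0.13 in SFM siNT and -0.14 in SFM siKLF4. With GC content the difference had a Pearson value of -0.225 in this pair and of 0.59 in the SFM pair with siFN. In that pair, 120 of 264 genes with a GC content of up to 45% were lower by at least 0.5. Depth differed between the libraries of the pair as given above. The part of length, GC content, depth or RNA quality in the result was not tested.

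Set against genes of the same length class, most of these lists had medians near 0. The median less that of the length class was -0.03 for cytosolic ribosomal proteins, -0.02 for the respiratory chain and -0.07 for mitochondrial ribosomal proteins. It was -0.13 for the NRF2 targets, of which 3 of 13 were above their class. Among lists with at least 5 members, the larger departures went upward. They were 0.18 for interferon-stimulated genes (6 of 6 above their class) and 0.14 for aminoacyl-tRNA synthetases (11 of 12 above). Mt2 and Mt1, with median transcript lengths of 449.5 and 633 nucleotides, belong to the shortest class, whose median was -0.23. Among all rows with a transcript longer than 1500 nucleotides, 0 of 1229 passed 1.

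**Figure D3:**
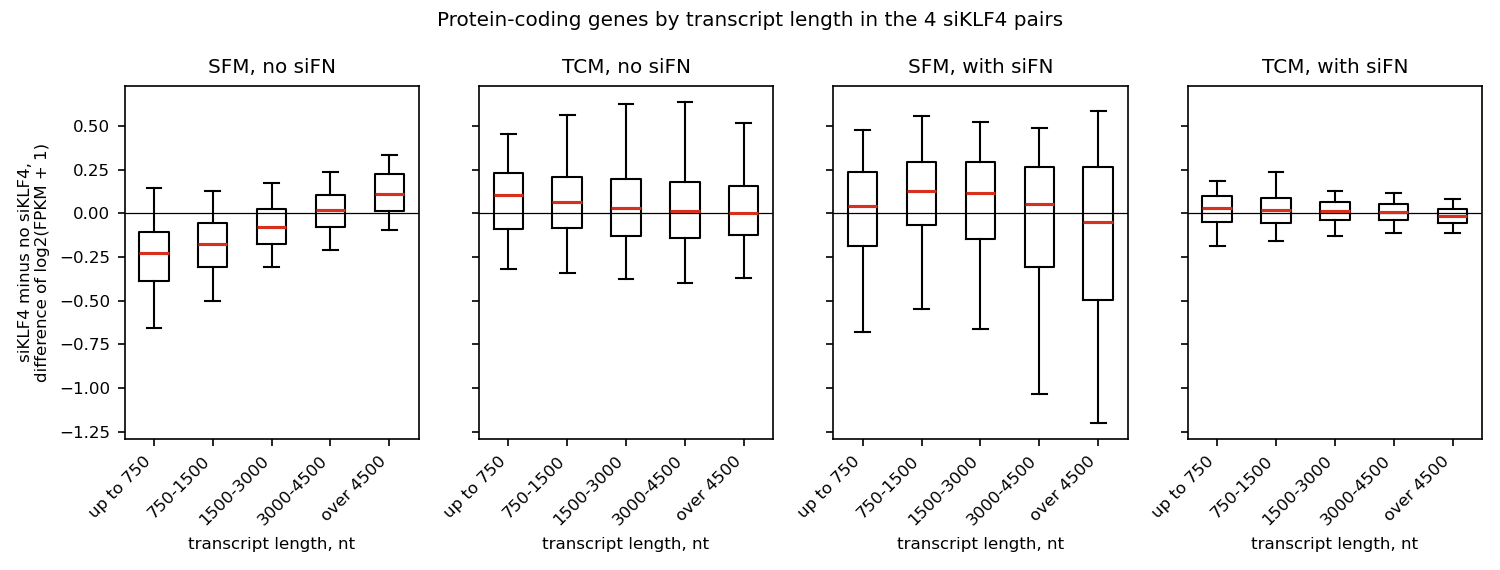
Difference of log2(FPKM + 1), siKLF4 minus no siKLF4 (vertical axis), of the 1812 protein-coding genes in 5 classes of transcript length (horizontal axis, nucleotides), 1 panel for each of the 4 pairs. Boxes span the quartiles, red lines are medians and whiskers reach the 5th and 95th percentiles; in the SFM panel the medians run from -0.23 in the shortest class to 0.11 in the longest.

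Other short or small-protein genes were among the largest differences. Tmem256, a small membrane protein, had 15.3 and 8.001, and Krtcap2, a subunit of the oligosaccharyltransferase that adds sugars to new proteins, had 30.5 and 17.0. Znhit2 had 8.49 and 4.49, and Tmem261 had 15.4 and 8.75. Hist1h2ah, a replication-dependent H2A histone, had 7.04 and 3.91, on about 65 and 18 reads. Histone genes of this kind make RNA without a poly(A) tail. Rn7s1, a 7SL RNA of the signal recognition particle, had 13.5 and 6.42, and its near-identical copy Rn7s2 had 3.35 and 6.42. The 2 copies differed in opposite directions, and together they had 16.8 and 12.8. Their reads were few, at about 92 and 22 for Rn7s1 and 23 and 22 for Rn7s2. Yam1 had 15.5 and 7.14, with 5.58 to 27.4 in the other 6 libraries. Gm29216, an unnamed gene model singled out for its abundance, had 9376 and 4982, which was 5.39% and 3.29% of the summed FPKM.

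Apart from Rps12l1 and Rn7s2, the 15 named genes highest in SFM siKLF4 differed less than each of the 15 lowest. Malat1, a long noncoding RNA of nuclear speckles, had 14.7 in SFM siNT and 22.03 in SFM siKLF4 (difference 0.56). It had 43.1 with siFN and 8.01 with siKLF4-siFN on SFM matrix, and on TCM matrix 34.2 with siNT, 14.1 with siKLF4, 36.9 with siFN and 38.7 with siKLF4-siFN. Its difference was -1.22 in the TCM pair and -2.29 in the SFM pair with siFN, so those pairs did not share its sign. Eif3a, the largest subunit of a translation initiation factor, had 12.1 and 17.8 (0.52). It had 13.2 with siFN and 4.08 with siKLF4-siFN on SFM matrix, and on TCM matrix 10.4 with siNT, 10.1 with siKLF4, 17.8 with siFN and 18.5 with siKLF4-siFN. SFM siKLF4 was thus level with the TCM libraries that had siFN. Over the other 3 pairs Malat1 differed by -1.15 ± 0.42 and Eif3a by -0.49 ± 0.31 (SE, limma, adjusted p = 0.8866 for each).

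The other named genes with higher values had varied roles. Polr2a, the largest subunit of RNA polymerase II, had 10.4 and 14.1, Pnn, a splicing-associated protein, had 7.94 and 10.9, and Prpf38b had 4.33 and 6.04. Ssb, the La protein that binds new polymerase III transcripts, had 9.40 and 12.5. Trim56, a ubiquitin ligase, had 4.96 and 7.38, Smug1, which removes uracil from DNA, had 3.85 and 5.34, and Moap1, a modulator of apoptosis, had 6.05 and 8.21. Tspyl2 had 6.41 and 8.56. Rbpsuh-rs3, at 8.58 and 14.1, and Aldoart1, at 4.54 and 6.52, are relatives of Rbpj and Aldoa that could share reads with them. Of 12 SR splicing factors and speckle RNAs, 8 were above 0, with a median of 0.02 and Malat1 the only one past 0.5. Of 12 aminoacyl-tRNA synthetases, enzymes that load amino acids onto tRNA, 10 were above 0 with a median of 0.07. The highest was Eprs, at 7.64 and 9.55. Over all 2697 rows, 999 were above 0. Less the length class, the median was 0.08 for the SR and speckle list and 0.14 for the synthetases. In each of these lists 11 of 12 were above their class.

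**Figure D4:**
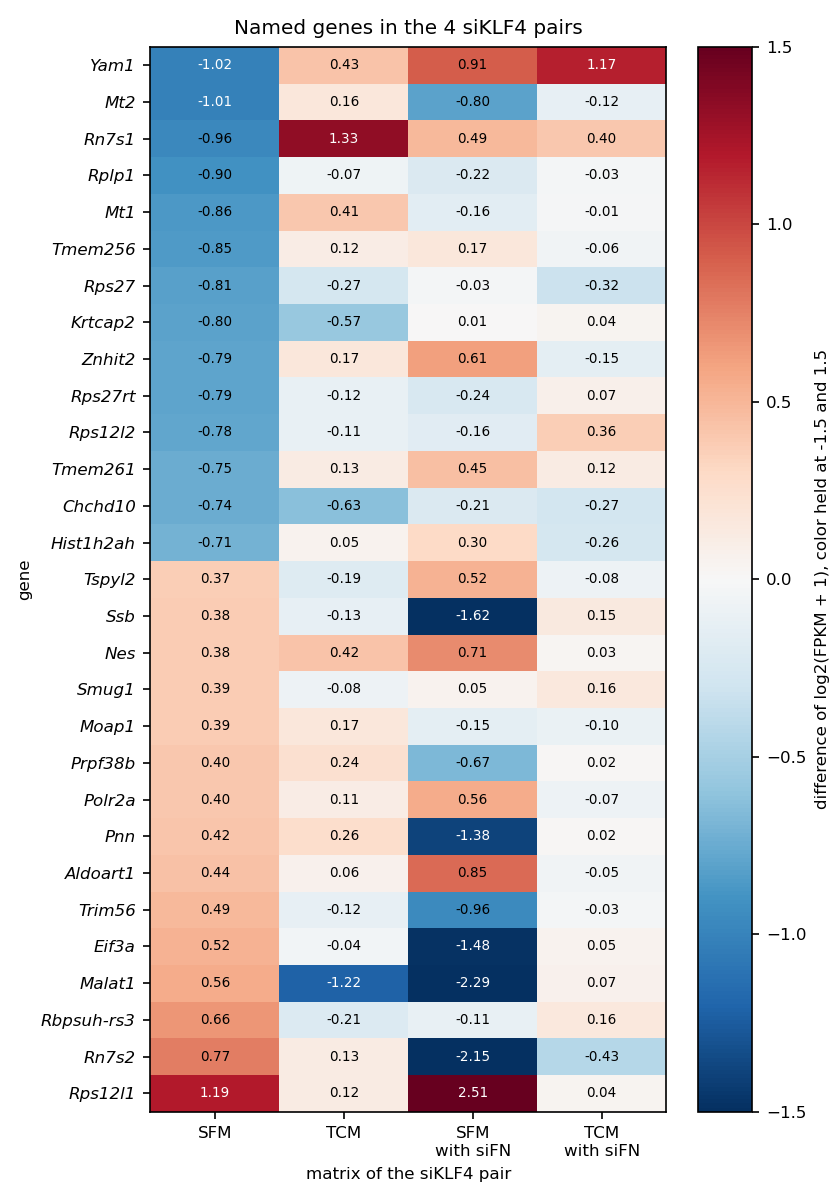
Difference of log2(FPKM + 1), siKLF4 minus no siKLF4, of 14 of the 15 named genes with the lowest differences and of the 15 with the highest in the SFM pair (rows), in each of the 4 pairs (columns). Red is higher and blue lower with siKLF4; only the SFM column was used to choose the rows, and in it Mt2 reads -1.01 and Rps12l1 1.19.

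Pigment genes at the minimum were below 0 without a large difference. Of 20 genes for melanin enzymes and melanosome proteins, 7 reached the minimum and all of these 7 were below 0, between -0.46 and -0.07, with none at 0.5. Over all protein-coding genes, 1210 of 1812 were below 0. Each of the 7 was also below the median of its length class, and the median less that class was -0.06. Mlana, a melanosome membrane protein, had 50.6 and 36.5, and Pmel, which forms the fibrils that melanin is laid on, had 110.4 and 83.9. Tyrp1, an enzyme of eumelanin synthesis, had 262.7 and 238.1, and Dct, another enzyme of the path, had 96.5 and 89.5. Of 5 lineage genes, Sox10 had 28.8 and 25.1 and Mc1r, the melanocortin receptor, had 24.9 and 21.7. Met, a growth factor receptor, was higher at 4.90 and 5.42. The median of this list was -0.19, and 4 of 5 were below 0. Below the minimum, Mitf had 0.78 and 0.84 and Pax3 had 1.38 and 1.44.

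Genes by which cells bind and pull on a matrix stood on both sides of 0. Among 8 YAP and SRF targets, which respond to tension and actin state, 6 were below 0 and the median was -0.14, or -0.10 less the length class. Over all 2697 rows, 1698 were below 0. Actg1, a cytoplasmic actin, had 510.0 and 356.3 (-0.52), Actb had 405.1 and 329.8 (-0.30), and Flna, an actin crosslinker, had 39.7 and 47.1 (0.24). Integrin and adhesion genes had 4 members at the minimum, fewer than the 5 set for a summary. Itgb1, the shared integrin chain, had 12.4 and 14.1, and Tln1, which links it to actin, had 10.3 and 12.05. Matrix proteins, proteases and inhibitors had 6 members and a median of -0.09, with Mmp14 at 9.71 and 8.37. Vim, the mesenchymal filament protein, had 235.6 and 209.1. Nes, an intermediate filament protein of neural crest cells and melanoma, had 13.1 and 17.3 and was higher with siKLF4 in all 4 pairs, by 0.38, 0.42, 0.71 and 0.03. Over the 3 pairs other than SFM its difference was 0.39 ± 0.16 (SE, limma, adjusted p = 0.8866).

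Growth and interferon lists are given beside their values in the other 3 siKLF4 pairs, in the order TCM, SFM with siFN and TCM with siFN. Mitosis genes had a median of -0.11 over 11 members, with Ube2c at 7.20 and 4.82 and Top2a at 7.29 and 9.14. S phase genes had 0.01 over 13 members, with Pcna at 36.7 and 33.1. In the other pairs the medians were 1.33, 0.07 and 0.01 for mitosis and 0.92, 0.19 and 0.03 for S phase. Interferon-stimulated genes had 0.10 over 6 members, with Cxcl10 at 42.8 and 38.4. In the other pairs it was 1.61, -1.24 and 0.002. The TCM pair had the largest medians upward in all 3 lists, and differences between pairs were not tested for lists.

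Glycolysis and hypoxia genes had a median of -0.09 over 22 members, with Gapdh at 125.3 and 98.5, and cholesterol and fatty acid synthesis genes had -0.05 over 21. ATF4 and CHOP targets had -0.01 over 24, endoplasmic reticulum chaperones -0.02 over 15, heat shock genes 0.02 over 9, proteasome subunits -0.02 over 22 and p53 targets 0.01 over 13. None of these lists had a member at 0.5. The lysosome and autophagy list had 23 of 26 members below 0 and a median of -0.14, with Map1lc3b, which coats autophagosomes, at 17.0 and 12.9. Over all 2697 rows, 1698 were below 0. Less the length class, the median of this list was -0.10, and 8 of 26 were above their class. Antigen presentation by MHC class I had -0.17 over 6 members, with B2m at 32.5 and 25.7. The AP-1 and immediate early genes had -0.03 over 12, with Ier3 at 96.5 and 69.2 and Junb at 7.27 and 9.28. Lipid droplet and fatty acid oxidation genes had -0.12 over 6, and chromatin HMG and variant proteins had -0.13 over 8, with H2afz at 75.4 and 52.8. Processed pseudogenes of ribosomal proteins had a median of -0.22 over 75, with Rpl30-ps10 at 62.2 and 23.4. Rpl35a-ps2, Rpl35a-ps3, Rpl35a-ps4 and Rpl35a-ps6 carried identical values.

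**Figure D5:**
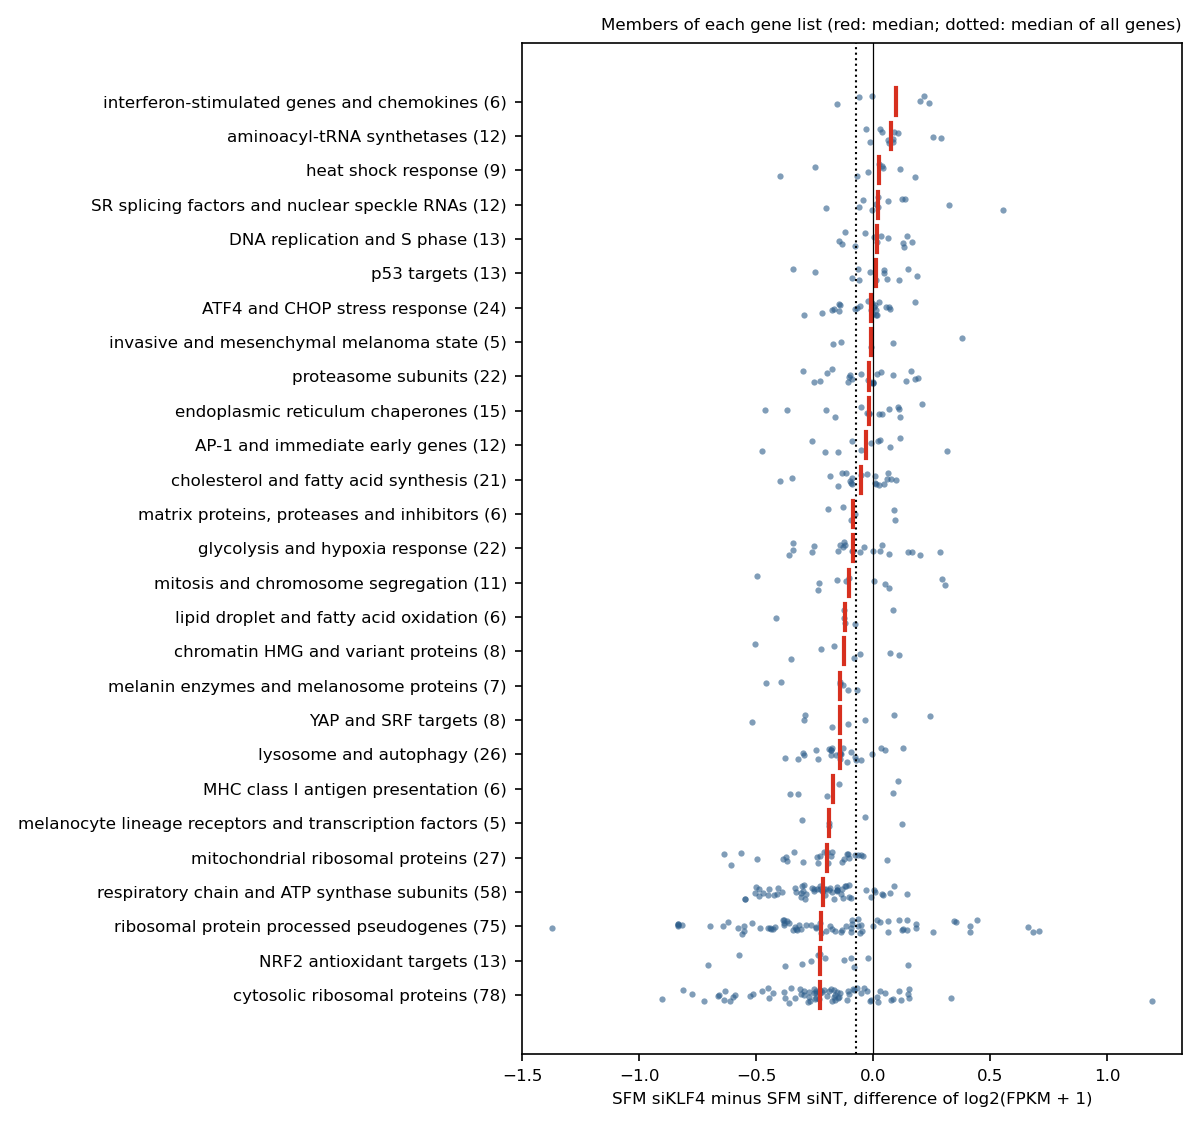
Difference of log2(FPKM + 1), SFM siKLF4 minus SFM siNT (horizontal axis), of each member (points) of 27 gene lists with at least 5 members at the minimum (vertical axis, number of members in brackets). Red bars are list medians and the dotted line is the median of all rows, -0.07; list medians lie between -0.23 and 0.10.

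In the melanoma cells Klf4 had 6.84 and 6.56 in the pair, a difference of -0.05. Its levels in the other libraries were 8.62 with siFN and 5.79 with siKLF4-siFN on SFM matrix, and on TCM matrix 8.04 with siNT, 6.75 with siKLF4, 8.13 with siFN and 7.80 with siKLF4-siFN. Fn1, below the minimum, had 1.82 and 2.32. These are transcripts of the plated cells and not of the cells that received the siRNA.

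The 3 other siKLF4 pairs asked whether the difference recurred. Of the same 2697 rows, 71 passed 1 in the TCM pair (2.63%), 134 in the SFM pair with siFN (4.97%) and 8 in the TCM pair with siFN (0.297%). Of the 31 rows past 1 here, 15 had the same sign in the TCM pair (48.4%), 14 in the SFM pair with siFN (45.2%) and 13 in the TCM pair with siFN (41.9%). Over all 2697 rows the shares were 47.8%, 42.9% and 43.5%. Correlations of the differences across rows were -0.024, -0.091 and -0.19 (Pearson) and -0.014, -0.063 and -0.139 (Spearman), each between pairs with no common library. The shares of the 31 were thus close to those of all rows. Higher in all 4 pairs were 132 rows (4.89%) and lower in all 4 were 105 (3.89%). Rows above 0 numbered 999 in the SFM pair, 1543 in TCM, 1623 in SFM with siFN and 1482 in TCM with siFN. The shares that unrelated signs would give were not computed, so the counts in all 4 pairs do not show recurrence.

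Among named genes with 1 sign in every pair, the largest by their smallest difference were Sparc, Psmc4, Btf3, Men1, Mcm6, Zfp36l2, Jmjd6 and Mrps7 on the higher side. Sparc, a matrix-binding glycoprotein, had 14.8 and 15.9 in the SFM pair and differed by 0.09, 0.40, 0.19 and 0.14 in the 4 pairs. On the lower side they included Chchd10, Rps16, Ppapdc2, Rpl27, Atxn7l3b, Emc6 and Cers2. Cers2, a ceramide synthase, had 22.02 and 19.8 and differed by -0.14, -0.46, -0.31 and -0.08. In the SFM pair the 95% counting interval of the log2 FPKM ratio was -0.13 to 0.32 for Sparc. It spanned 0 for each gene named on the higher side. On the lower side it lay below 0 for Chchd10, Rps16 and Emc6, spanned 0 for Rpl27 and Atxn7l3b, and reached 0 for Cers2. The genes on both sides were chosen for their shared sign, which is no support for it.

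Tests across 6917 genes, those whose mean level over the 8 libraries reached 1 FPKM, called nothing. limma with the pair as a block called 0 genes (0%) for siKLF4 in the other 3 pairs, with 233 at an unadjusted p under 0.05. It called 0 (0%) for the departure of the SFM pair from those 3, with 249 at an unadjusted p under 0.05, and 0 (0%) for siKLF4 over all 4 pairs, with 180. In the departure test 1 arm is the SFM pair alone, so its spread comes from the other 3 pairs and it says nothing of how the SFM pair would vary. Separate cultures of 1 condition are named in no label, so a p-value here reflects the spread among these 8 libraries and nothing wider. Over all 4 pairs, and among genes with an official name, the smallest p in each direction were those of Mir6236 (-0.68 ± 0.11) and Ppp1r35 (0.48 ± 0.12), with an adjusted p of 0.967 in limma.

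Set among all 28 pairs of the 8 libraries, over 2598 genes whose mean level reached 5 FPKM, SFM siKLF4 and SFM siNT had 23 genes past 1. The count ranged from 6 to 335 with a median of 74.5, and 5 pairs had fewer. The SD of protein-coding differences from SFM siKLF4 was 0.20 to SFM siNT, 0.17 to TCM siFN and 0.16 to TCM siKLF4-siFN. By this measure SFM siKLF4 lay nearer to these TCM libraries than to SFM siNT. Correlations with GC content and transcript length used values of 1812 protein-coding genes centred on the mean of the 8 libraries. The GC value was -0.467 in SFM siKLF4, -0.37 in TCM siFN, -0.453 in TCM siKLF4-siFN and -0.251 in SFM siNT. It was 0.044 to 0.556 in the other libraries. For length, SFM siKLF4 had 0.304, TCM siFN 0.182, TCM siKLF4-siFN 0.138 and SFM siNT -0.164, and the others -0.164 to 0.085. The part of GC content or length in this closeness was not tested.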

How the data were processed

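RNA-seq libraries of B16-F10 cells were analysed from FPKM values that the authors deposited, with 46477 rows and 1 column for each of 8 libraries. STAR 2.4.1d, Partek and the build mm10 were used, per the submitters' processing notes. How reads were counted, on which annotation and strand, and whether libraries were scaled to each other is not given in the sources used here. Low FPKM values move in steps of 1 read, which gave an estimate of depth. Between 26.9% and 31.0% of them lay within 0.05 read of a whole number, so depths (11600000 to 23000000 reads) are approximate and no count test was run. Symbols were matched to GENCODE M21 (90.2% of rows, 94.7% of the 2697 genes). The 27 date-like rows stayed in the table and were passed over only when genes were named.

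limma 3.58.1 in R 4.3.3 was fitted to log2(FPKM + 1), with a variance trend, the pair as a block, two-sided p-values and a Benjamini-Hochberg threshold of 0.05, and was tested on simulated data. Named genes are the 15 largest differences each way with an official name, up to 4 per list, up to 8 each way with 1 sign in 4 pairs, up to 5 each way per fit, and Klf4 and Fn1; some genes that this rule names are not reported here. The question, the genes and the 33 lists, 27 with at least 5 members, were chosen with earlier results of these data known.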

Additional observations from a re-analysis of the deposited data

How the results depend on the processing

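The labels give no replicate numbers, so no block by replicate could be fitted. The limma block is instead the pair of libraries at 1 medium and siFN level, and siKLF4 over all 4 pairs had 0 calls with or without it. The count of 31 genes past 1 was 7 with a pseudocount of 5, 13 with an FPKM of at least 5 in both libraries, 67 with at least 1 in either or with no filter, 1 among protein-coding genes, 2 without pseudogenes and unnamed models, and, in alternatives chosen after seeing the data, 254 at a step of 0.5 and 0 above 1500 nucleotides, where fewer genes were counted. It stayed within 1.5 times in 3 others. With no filter on low values, limma called 261 genes for the departure of the SFM pair, 255 of them with a mean FPKM under 0.1 and 1 with a mean of at least 1. With the TCM pair left out, the departure of the pseudogene Gm6311 was -3.81, with levels of 9.98 in SFM siNT and 1.70 in SFM siKLF4. The SFM pair alone is 1 arm of that fit, so the value is no support for a difference. The other 2 fits called 0 genes in each alternative run. The median of mitosis genes reversed to 0.0528 with an FPKM of at least 1 and to 0.054 with no filter. That of HMG proteins reversed to 0.0236 and 0.0264 in the same settings and to 0.05 less the length class, and that of ribosomal pseudogenes to 0.0003 less the length class. The causes were not tested. Precision is limited by 1 library per condition and by approximate depth: culture-to-culture variation cannot be seen here.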
